A study of Mus musculus with 4 samples.

Results

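The 6 genes described here are V genes of the δ chain of the mouse γδ T cell receptor, present in both count tables of the series: *Trdv1*, *Trdv2-2*, *Trdv4* and *Trdv5*, and the dual-use genes *Trav15-1-dv6-1* and *Trav15-2-dv6-2*, which can be joined into either an α or a δ chain. They were taken by symbol, without using any measured value, and are 6 of 33696 genes in the tables. Another 12 δ variable or dual-use genes were also present. They enter where a cell's whole set of these genes is needed, and as a list beside the 6. Livers were taken at an age of 2 months from mice labelled at E9.5. These mice carry *Stab2-CrexERT2* together with *R26-LSL-tdT*, so that an inducible Cre knocked into the endothelial gene *Stab2* switches on the red protein tdTomato. CD45+ tdTomato+ cells and CD45+ tdTomato− cells were sorted and each gave 1 gene expression library and 1 γδ receptor library made with a 10x Genomics 5′ kit. All 4 libraries carry the same genotype label (S2) and no treatment in their labels. Tamoxifen, which starts the labelling, is named in the study's methods. The tdTomato− libraries are labelled as control CD45+ cells, and whether both sorts came from the same mice is not given in the sources used here. *Stab2* is also active in the adult liver sinusoid, and the number of mice behind a library is not given in the sources used here. With 1 library per sort there was no replicate, so no test was made between sorts. All intervals below are 95% intervals that cover counting error only. The tdTomato+ libraries are batch 1 and the tdTomato− libraries batch 2, so sort and batch cannot be told apart.

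A δ chain is made in the developing T cell by joining a V gene to D and J segments, and the joint, called CDR3, is the most variable part of the receptor. A cell normally ends with 1 δ chain and 1 γ chain, and V genes that were not joined can still be transcribed from the open locus. In mouse, the γ and δ V genes used differ with the wave of thymic development. *Trdv4* is known for a receptor of fetal origin with little variation in its joint, which pairs with *Trgv6* in cells that make IL-17. *Trdv5* is known for pairing with *Trgv4*, also in IL-17-producing cells. The *Trav15* dual-use genes are known for pairing with *Trgv1* in cells with NKT-like properties.

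All 6 genes lie in the T cell receptor α and δ locus on chromosome 14 of mm10 (GRCm38, GENCODE vM21 annotation), and each is annotated as a T cell receptor V gene. From left to right they are *Trav15-1-dv6-1* (chr14:53559632-53560247), *Trav15-2-dv6-2* (chr14:53649404-53649994), *Trdv1* (chr14:53881612-53882217), *Trdv2-2* (chr14:53960944-53961602), *Trdv4* (chr14:54074905-54075515) and *Trdv5* (chr14:54148662-54149294). The first 5 are on the plus strand. *Trdv5* lies on the minus strand, beyond the constant gene *Trdc*, and overlaps 207 bases of it. Whether the counting used strand is not given in the sources used here, and if it did not, reads in those bases could not be assigned to one gene or the other. *Trdv2-2* shared 132 of its 308 stretches of 90 bases (42.9%) with *Trdv2-1*, and *Trav15-2-dv6-2* shared 31 of 281 (11%) with the copies *Trav15d-2-dv6d-2* and *Trav15n-2*, so their counts may miss reads from those stretches. The other 4 genes shared none, although *Trav15-1-dv6-1* was 95% identical to its copy *Trav15d-1-dv6d-1* over the last 280 bases and *Trav15-2-dv6-2* 95.8% identical to *Trav15d-2-dv6d-2*. Counts of these pairs may be split between the copies. Over the same bases the dual-use pair was 76.3% identical, and every other pair of the 6 genes between 46.3% and 62.4%.

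The ends of the 6 genes are shown because the junctions described further on begin with them. Each line gives the last 60 bases of the coding sequence of the V gene from the reference, 5′ to 3′. The capitals mark the part that belongs to CDR3, from the cysteine codon onwards.
Trdv1: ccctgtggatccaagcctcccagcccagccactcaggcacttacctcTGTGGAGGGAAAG
Trdv2-2: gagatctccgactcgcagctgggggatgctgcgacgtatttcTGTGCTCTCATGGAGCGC
Trdv4: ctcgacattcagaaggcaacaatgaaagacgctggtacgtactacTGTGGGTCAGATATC
Trdv5: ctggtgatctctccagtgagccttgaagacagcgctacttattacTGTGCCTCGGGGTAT
Trav15-1-dv6-1: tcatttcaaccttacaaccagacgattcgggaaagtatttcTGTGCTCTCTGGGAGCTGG
Trav15-2-dv6-2: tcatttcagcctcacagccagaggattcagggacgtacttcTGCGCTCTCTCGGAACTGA
The D segment that sat in most recurrent junctions is also given from the reference, all in capitals.
Trdd2: ATCGGAGGGATACGAG

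The tdTomato+ library held 17957 barcodes with 203366009 UMIs and the tdTomato− library 18444 barcodes with 156771260 UMIs, of which 17508 and 18173 were kept. Cell classes were rebuilt by clustering without any receptor gene, so the δ V genes did not shape them, and were named from marker lists. γδ T-like cells numbered 191 in the tdTomato+ library and 7285 in the tdTomato− library, and αβ T-like cells 2616 and 5314. A large part of the tdTomato+ library was endothelial-like (5236 barcodes) or mixed T and endothelial (3706 barcodes), against 7 and 31 in the tdTomato− library. The 14 endothelial markers together stood at 519 CPM (UMI counts scaled to the same total in every group, the usual unit of single-cell data) in tdTomato+ γδ T-like cells, against 53.2 CPM in tdTomato− ones, and their part in the differences below was not tested. *Trdc*, which codes for the δ constant region, stood at 259 CPM in tdTomato+ cells, against 411 CPM in tdTomato− γδ T-like cells. The 2 gene expression libraries had 84 barcodes in common and the receptor libraries none.

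*Trdv4* was the δ V gene with the highest summed level in γδ T-like cells of both libraries. It reached 708 CPM (interval 672 to 746, 1424 counts) in tdTomato+ cells, against 326 CPM (322 to 331, 20920 counts) in tdTomato− cells. *Trdv2-2* followed with 169 CPM in the tdTomato+ cells, against 267 CPM in the tdTomato− cells. *Trav15-2-dv6-2* stood at 19.9 CPM in the tdTomato+ cells, against 236 CPM in the tdTomato− cells, and *Trdv5* at 38.8 CPM and 166 CPM. *Trav15-1-dv6-1* had 27.9 CPM in the tdTomato+ cells, against 84.0 CPM in the tdTomato− cells. *Trdv1* was low in both, at 4.48 CPM from 9 counts and 10.3 CPM from 660 counts. The order was therefore *Trdv4*, *Trdv2-2*, *Trav15-2-dv6-2*, *Trdv5*, *Trav15-1-dv6-1* and *Trdv1* in the tdTomato− library, with no overlap between the intervals of neighbours. In tdTomato+ cells the intervals of *Trdv5* and *Trav15-1-dv6-1*, and of *Trav15-1-dv6-1* and *Trav15-2-dv6-2*, overlapped. A 5′ kit counts each captured transcript once whatever its length, so CPM were not divided by gene length.

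The share of cells behind these sums was small for some genes. A *Trdv4* UMI was found in 44.0% of tdTomato+ and 40.5% of tdTomato− γδ T-like cells, so the higher sum in the tdTomato+ library came with a near-equal share of cells. *Trdv2-2* had a UMI in 17.8% of tdTomato+ and 24.1% of tdTomato− cells. For *Trdv5* the shares were 7.33% in tdTomato+ and 19.1% in tdTomato− cells. *Trav15-1-dv6-1* and *Trav15-2-dv6-2* were found in 5.24% and 6.28% of tdTomato+ cells, against 16.2% and 17.6% of tdTomato− cells. Median depth in the whole libraries was 8955 UMIs per cell in tdTomato+ and 7128 in tdTomato−, so the lower shares of the tdTomato+ library came at the higher depth.

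B cell-like cells should have no δ chain and serve as background. In the tdTomato+ library their levels of the 6 genes lay between 0 and 2.18 CPM. In the tdTomato− library they lay between 5.06 CPM (*Trdv1*) and 45.2 CPM (*Trdv2-2*), with *Trdv4* at 44.6 CPM. Of the 433 tdTomato− B cell-like cells 8 also carried a δ chain. Among the 331 of them with no *Trdc*, *Trac* or *Cd3e* count, *Trdv4* stood at 0.964 CPM. Levels up to 45.2 CPM in the tdTomato− library therefore cannot be read as transcription by the class they are given for.

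γδ T-like cells were divided into 5 named subsets, called by the gene that heads their marker list, and each δ V gene had its own distribution over them. The *Ncr1* subset, named for an NK cell receptor, held 82 tdTomato+ and 3734 tdTomato− cells, and the *Gzmk* subset, named for a granzyme, 22 and 1657. The *Il17a* subset, named for the IL-17 cytokine gene, held 47 and 984 cells. The *Ccr7* subset, named for a lymph node homing receptor, held 17 and 708, and the proliferating subset 12 and 180. No cells met the *Il4* list in either library. The remaining 11 tdTomato+ and 22 tdTomato− cells (sub-cluster 15) were left unnamed, with the endothelial markers *Ptprb*, *Igfbp7* and *Fcgr2b* among their leading genes. These unnamed cells stayed in the values of the whole class, and gave 24 of its 78 tdTomato+ *Trdv5* counts. The tdTomato+ values of the *Gzmk*, *Ccr7* and proliferating subsets rest on 12 to 22 cells each.

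*Trdv4* had its highest level in the *Il17a* subset. In tdTomato− cells a UMI was found in 41.9% of *Il17a*, 43.3% of *Gzmk*, 39.4% of *Ncr1*, 40.4% of *Ccr7* and 31.7% of proliferating cells. By the share of cells with any UMI the tdTomato− *Il17a* cells thus did not stand apart. After thinning to 1000 UMIs per cell they did, with shares of 32.9%, 12.2%, 14.6%, 12.6% and 11.1% in the same order. In tdTomato+ cells the shares with any UMI, without thinning, were 80.9%, 9.09%, 41.5%, 35.3% and 16.7% in that order. In the *Il17a* subset *Trdv4* reached 2326 CPM in the tdTomato+ cells, against 965 CPM in the tdTomato− cells. In the proliferating subset it had 382.5 CPM in the tdTomato+ cells, against 353 CPM in the tdTomato− cells, but 137 of the 141 tdTomato+ counts came from 1 of the 12 cells. In the *Ccr7* subset it had 328 CPM in 17 tdTomato+ cells, against 212 CPM in 708 tdTomato− cells. The *Ncr1* subset had 180 CPM in the tdTomato+ cells, against 250 CPM in the tdTomato− cells, and the *Gzmk* subset 30.8 CPM from 6 counts and 148 CPM. The *Il17a* subset consisted of a pair of clusters, and *Trdv4* separated them although it was not used in the clustering. In the cluster led by *Ablim3* and *Scart1* (sub-cluster 7), *Trdv4* stood at 2826 CPM (2650 to 3010) in 33 tdTomato+ cells and 2683 CPM (2622 to 2745) in 329 tdTomato− cells, with a UMI in 100% and 96.0% of cells. In the cluster led by *Scart2* and *Ccr6* (sub-cluster 5), it stood at 883 CPM in 14 tdTomato+ cells, of which 5 had a count, against 138 CPM in 655 tdTomato− cells. The level within the *Scart1* cluster was thus close in both libraries, and the libraries differed in how many of their cells were in it. That cluster held 17.3% of tdTomato+ and 4.52% of tdTomato− γδ T-like cells, and 67.5% and 35.0% of all *Trdv4* counts of the class.

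*Trdv5* was the other gene of the *Il17a* subset, with few counts in the tdTomato+ library. It stood at 21.8 CPM (10 counts) in tdTomato+ cells, against 468 CPM in tdTomato− *Il17a* cells. In the proliferating subset it had 24.4 CPM (9 counts) in tdTomato+ cells, against 587 CPM in tdTomato− cells, its highest level. In the *Ccr7* subset no count was found in 17 tdTomato+ cells, against 109 CPM in tdTomato− cells. The *Ncr1* subset had 53.0 CPM in the tdTomato+ cells, against 88.3 CPM in the tdTomato− cells. Within the tdTomato− *Il17a* subset *Trdv5* and *Trdv4* were split by cluster, with *Trdv5* at 681 CPM and a UMI in 89.6% of cells in the *Scart2* cluster and at 24.5 CPM in the *Scart1* cluster.

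*Trdv2-2* was a gene of the *Ncr1* subset in both libraries. It had 471 CPM in the tdTomato+ cells, against 504 CPM in the tdTomato− *Ncr1* cells, a log2 ratio of −0.10 (−0.26 to 0.06). In the *Ccr7* subset it had 9.80 CPM (2 counts) in tdTomato+ cells, against 157 CPM in tdTomato− cells. In the remaining 3 subsets it lay between 0 and 4.37 CPM in tdTomato+ and between 32.6 and 46.4 CPM in tdTomato− cells. That tdTomato− range lies near the 45.2 CPM of tdTomato− B cell-like cells. *Trdv1* was far lower, with 13.6 CPM in the tdTomato+ cells, against 15.4 CPM in the tdTomato− *Ncr1* cells.

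In the tdTomato− library *Trav15-2-dv6-2* was highest in the *Ncr1* and *Trav15-1-dv6-1* in the *Gzmk* subset, and both were also found in *Ccr7* cells. The tdTomato− *Ccr7* cells had 119 CPM of *Trav15-2-dv6-2* and 57.9 CPM of *Trav15-1-dv6-1*. The 17 tdTomato+ *Ccr7* cells had no count of the former and 1 count of the latter. *Trav15-2-dv6-2* had 46.9 CPM (31 counts) in tdTomato+ cells, against 468 CPM in tdTomato− *Ncr1* cells, a log2 ratio of −3.32 (−3.88 to −2.81). *Trav15-1-dv6-1* had no count in the 22 tdTomato+ *Gzmk* cells, which allows up to 18.9 CPM, against 266 CPM in the tdTomato− *Gzmk* cells. In the *Ncr1* subset *Trav15-1-dv6-1* was at 59.0 CPM in the tdTomato+ cells, against 53.1 CPM in the tdTomato− cells, a log2 ratio of 0.15 (−0.34 to 0.61). Here too the clusters of a subset separated the genes. In tdTomato− cells, 88.7% of the 702 cells of one *Gzmk* cluster (sub-cluster 4) had a *Trav15-1-dv6-1* UMI, at 614 CPM. In the other large *Gzmk* cluster (sub-cluster 3) 2.08% of 864 cells had one, and 73.8% had a *Trdv4* UMI, at 258 CPM. With both libraries pooled, *Trac* stood at 412 CPM in sub-cluster 4 and 327.5 CPM in sub-cluster 3. The tdTomato+ library had 7 and 8 cells in them.

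**Figure D1:**
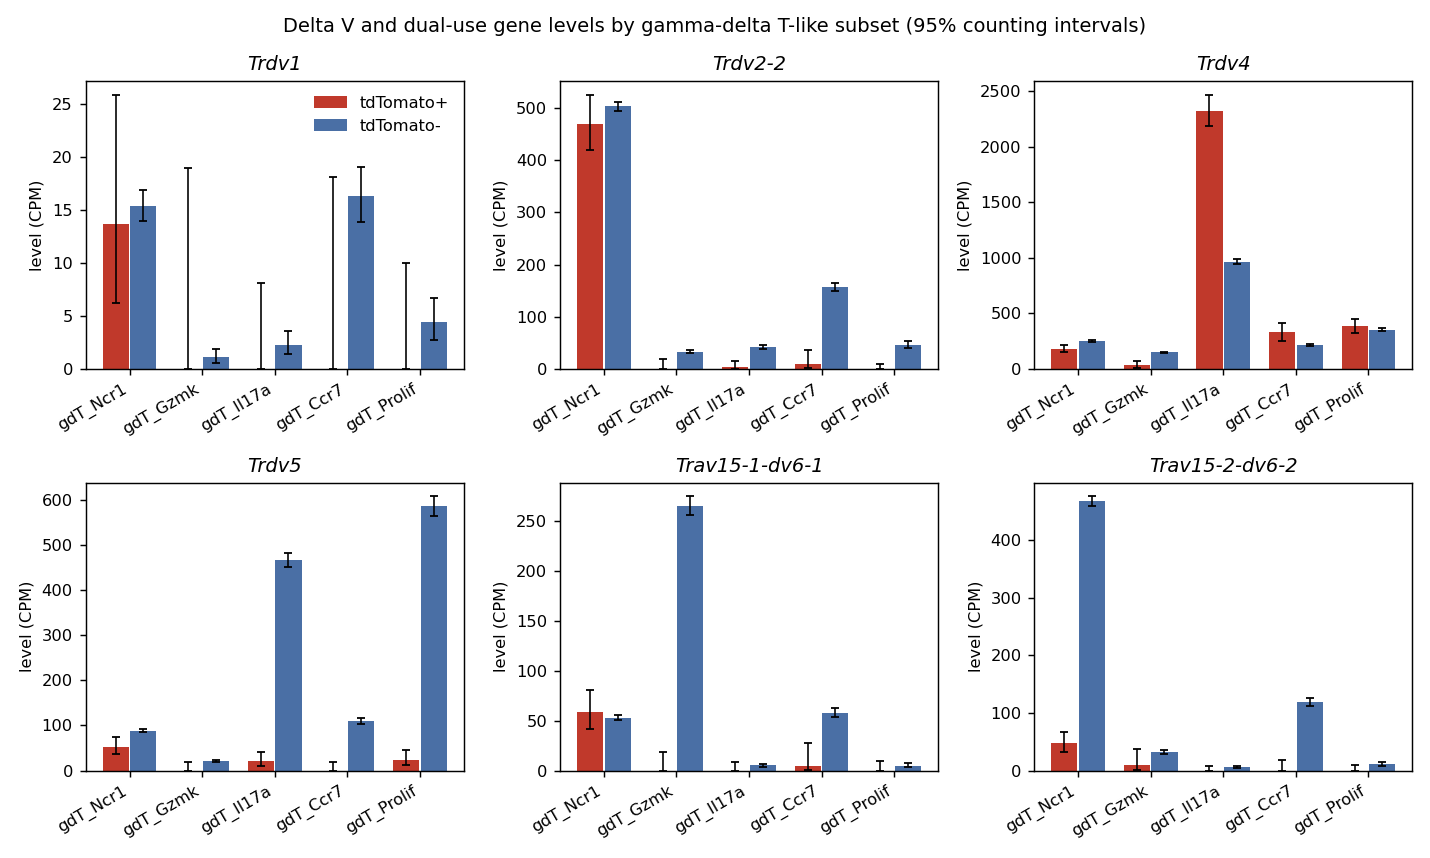
Level of each of the 6 genes (y axis, CPM) in 5 γδ T-like subsets (x axis) in the tdTomato+ (red) and tdTomato− (blue) library; bars are summed levels and whiskers 95% Poisson intervals. *Trdv4* peaked in the *Il17a* subset of both libraries (2326 and 965 CPM), *Trdv2-2* in the *Ncr1* subset of both (471 and 504 CPM), while *Trdv5* and the dual-use genes had their high bars in the tdTomato− library.

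Between the libraries, 5 of the 6 genes had the 50 CPM in at least 1 library that was asked for a comparison over all γδ T-like cells. A gene was called when its ratio was at least 2 and the interval did not hold 1. *Trdv4* was called higher in tdTomato+ cells, with a log2 ratio of 1.12 (1.04 to 1.20). The background was 1.94% of 3806 genes called higher, and 2.44% called in either direction. *Trdv5* (−2.10), *Trav15-1-dv6-1* (−1.59) and *Trav15-2-dv6-2* (−3.57) were called lower, against a background of 0.499%. *Trdv2-2*, at −0.66, was not called. The 5 genes had a median log2 ratio of −1.59, against 0.02 for all 3806 genes. Counts of a V gene come in large numbers from few cells, so counting intervals understate the error of these ratios.

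The *Trdv4* call depended on which cells were taken. Without the 33 tdTomato+ and 329 tdTomato− cells of the *Scart1* cluster, a check added after the data were seen, the log2 ratio was 0.32. It was 0.27 and 0.28 with clustering at resolutions of 0.5 and 2, with 359 and 372 tdTomato+ cells in the class. At resolution 1, sub-clusters 11 and 12 had been taken out of the class because they fell under the *Trdc* limit of 200 CPM. They held 58 and 108 tdTomato+ and 114 and 22 tdTomato− cells. At the other resolutions no sub-cluster was taken out, so resolution and this step changed together. The *Trdv4* ratio became −0.39 over all cells with at least 2 *Trdc* counts whatever their class. There were 468 tdTomato+ and 7229 tdTomato− cells of this kind. Of those, 247 (52.8%) of the tdTomato+ and 20 (0.277%) of the tdTomato− cells were mixed T and endothelial, and these carried 12.8% of the *Trdv4* counts of the tdTomato+ group. It was −0.99 in the 10 tdTomato+ and 271 tdTomato− γδ T-like cells without any *Trac*, *Trbc1* or *Trbc2* count. *Trav15-1-dv6-1* depended on the cells too, at 0.20 in cells with a listed chain and −0.14 in cells without any *Trac*, *Trbc1* or *Trbc2* count. *Trdv5* stayed below 0 under each alternative that gave it a value, but did not reach the fold limit in cells with a listed chain (−0.83). *Trav15-2-dv6-2* stayed below 0 under each alternative that gave it a value.

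Of the receptor partners, 16 of 17 reached the same level, 1 was called higher and none lower, with a median log2 ratio of −0.27. The one called was *Trgv6*, the γ V gene known to pair with *Trdv4*, with 227 CPM in tdTomato+ cells, against 79.6 CPM in tdTomato− γδ T-like cells and a log2 ratio of 1.51 (1.37 to 1.65). *Trgv4*, known to pair with *Trdv5*, had 168 CPM in the tdTomato+ cells, against 328 CPM in the tdTomato− cells (−0.97). *Trgv1*, known to pair with the dual-use genes, had 134 CPM and 226 CPM (−0.75). Of the 12 other δ V and dual-use genes, only *Trav13-4-dv7* reached the level, and it was called higher, with 130 CPM in the tdTomato+ cells, against 54.9 CPM in the tdTomato− cells (1.24). In the 22 tdTomato+ *Gzmk* cells it stood at 641 CPM from 125 counts, against 24.4 CPM in tdTomato− *Gzmk* cells, and was the highest δ V or dual-use gene there.

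In most cells 1 gene stood out. A gene was called dominant in a cell when it had at least 2 UMIs and at least 70% of the cell's UMIs over all 18 δ V and dual-use genes. A dominant gene was found in 134 of 191 tdTomato+ (70.2%) and 4909 of 7285 tdTomato− (67.4%) γδ T-like cells. *Trdv4* dominated 66 tdTomato+ cells (34.6%, 27.8 to 41.8) and 1223 tdTomato− cells (16.8%, 15.9 to 17.7). A *Trdc* UMI was found in 66.7% of the former and 88.8% of the latter. The 18 of the 66 that were *Ncr1* cells had *Trdc* at 20.1 CPM, against 552 CPM in the 402 tdTomato− ones. That is near the 21.0 CPM of the tdTomato+ NK-like class, so the 34.6% may include cells that are not γδ T cells, which was not tested. *Trdv2-2* dominated 23 (12.0%) and 957 (13.1%), and *Trdv5* 7 (3.66%) and 918 (12.6%). *Trav15-1-dv6-1* dominated 6 (3.14%) and 708 (9.72%), and *Trav15-2-dv6-2* 4 (2.09%) and 784 (10.8%). *Trdv1* dominated 1 tdTomato+ and 34 tdTomato− cells. Among the other genes of the 18, *Trav13-4-dv7* dominated 18 tdTomato+ and 186 tdTomato− cells. In the *Il17a* subset *Trdv4* dominated 38 of 47 tdTomato+ (80.9%) and 336 of 984 tdTomato− cells (34.1%), and *Trdv5* 2 (4.26%) and 498 (50.6%). Among proliferating cells *Trdv5* dominated 1 of 12 tdTomato+ and 127 of 180 tdTomato− cells (70.6%). *Trav15-1-dv6-1* dominated 0 of 22 tdTomato+ and 523 of 1657 tdTomato− *Gzmk* cells (31.6%). Genes of the 18 outside the 6 dominated 11 of these 22 and 15 of these 1657 cells.

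The number of UMIs behind a dominant call differed between genes and subsets. *Trdv4* had a median of 26 UMIs in tdTomato+ *Il17a* cells that it dominated and 20.5 in tdTomato− ones, and 70.5 (2 cells, 1 of them with 137) and 72.5 (20 cells) in the proliferating ones. Where it dominated *Gzmk* cells the median was 2 in tdTomato+ (1 cell) and 3 in tdTomato− (356 cells), and in *Ncr1* cells 4.5 and 5. *Trdv2-2* and *Trav15-2-dv6-2* had medians of 14 and 16 UMIs in the tdTomato− cells they dominated, *Trdv5* 7 and *Trav15-1-dv6-1* 5.

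More than 1 of the 18 δ V and dual-use genes could be present in a cell. At least 2 UMIs of each of 2 or more genes were found in 15 of 191 tdTomato+ (7.85%) and 1525 of 7285 tdTomato− γδ T-like cells (20.9%). The most frequent pair in both was *Trdv2-2* with *Trdv4*, in 5 tdTomato+ and 357 tdTomato− cells. Of tdTomato− cells with at least 2 *Trdv4* UMIs, a second gene of the 18 was present in 10.9% of *Il17a*, 12.0% of *Gzmk* and 60.2% of *Ncr1* cells. Doublets were not removed from these counts beyond the 1 barcode that the caller marked, and their part was not tested.

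The receptor libraries read the δ V gene a second way, from the assembled chain. They listed 150 productive chains for tdTomato+ and 3018 for tdTomato− cells, of which 29 and 800 were δ chains, in 29 and 796 barcodes. A δ chain had a median of 12 UMIs in tdTomato+ and 15 UMIs in tdTomato− barcodes. TRDV2-2 was used by 21 of 29 tdTomato+ (72.4%, 52.8 to 87.3) and 388 of 800 tdTomato− chains (48.5%, 45.0 to 52.0). TRDV5 was used by 3 (10.3%, 2.19 to 27.4) and 269 (33.6%, 30.4 to 37.0). TRDV4 was used by 3 (10.3%) and 100 (12.5%), and TRDV1 by 2 (6.90%) and 43 (5.38%). No δ chain used a dual-use gene in either library. Only 8 of the 29 tdTomato+ δ barcodes were γδ T-like cells and 16 were mixed T and endothelial, against 563 γδ T-like and 152 αβ T-like among the 795 kept δ barcodes of the tdTomato− library. In γδ T-like cells alone TRDV2-2 made up 50% of 8 tdTomato+ and 41.9% of 566 tdTomato− chains.

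Chains of the 4 V genes differed in how often the same junction came back. In the tdTomato− library the 100 TRDV4 chains held 11 distinct junctions and the most frequent made up 82.0%. The 269 TRDV5 chains held 78, with 58.7% in the most frequent. The 388 TRDV2-2 chains held 246 and the 43 TRDV1 chains 39, with 6.70% and 6.98% in the most frequent. TRDJ2 was joined to 2 of 3 tdTomato+ and 84 of 100 tdTomato− TRDV4 chains, and every chain of another V gene used TRDJ1. The most frequent TRDV5 junction of the tdTomato− library, the leading junction of TRDV4 with each J gene and the 3 leading TRDV2-2 junctions are shown, so that the recurrent ones can be set beside each other. They run 5′ to 3′ from the cysteine codon, with the V and J matches in lower case and, in capitals, the bases between them.
TRDV5 with TRDJ1: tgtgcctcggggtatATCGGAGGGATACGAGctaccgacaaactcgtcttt
TRDV4 with TRDJ2: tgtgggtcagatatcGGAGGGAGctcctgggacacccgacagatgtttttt
TRDV4 with TRDJ1: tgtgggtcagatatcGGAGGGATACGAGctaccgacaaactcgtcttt
TRDV2-2 with TRDJ1, most frequent: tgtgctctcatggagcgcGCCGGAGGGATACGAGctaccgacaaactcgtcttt
TRDV2-2 with TRDJ1, second: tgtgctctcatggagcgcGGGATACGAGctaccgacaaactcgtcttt
TRDV2-2 with TRDJ1, next: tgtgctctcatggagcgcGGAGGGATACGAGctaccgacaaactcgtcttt

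The TRDV5 junction kept all 15 germline bases of the V gene's end from the cysteine codon, and its 16 bases in between were the whole of *Trdd2*. It was found in 1 tdTomato+ and 158 tdTomato− chains. Of the 158, 66 lay in *Il17a*, 37 in *Ccr7*, 30 in proliferating, 5 in *Ncr1* and 1 in *Gzmk* cells, and of the 99 that came with a γ chain 85 had TRGV4. The TRDV4 junction with TRDJ2 also kept all 15 germline bases and had 8 in between. It was found in 2 tdTomato+ and 82 tdTomato− chains, with 33 of the 82 in *Il17a*, 23 in *Ccr7*, 12 in *Ncr1* and 7 in proliferating cells. Of the 80 with a γ chain 62 had TRGV6 and 17 had TRGV5. The TRDV4 junction with TRDJ1 was found in 1 tdTomato+ and 8 tdTomato− chains, all 8 in *Ncr1* cells, and 5 of the 7 with a γ chain had TRGV4 and 2 TRGV1. The 3 TRDV2-2 junctions were found in 1, 0 and 0 tdTomato+ and 26, 22 and 20 tdTomato− chains, and none of these lay in *Il17a* cells. In all, 27 distinct tdTomato+ and 374 distinct tdTomato− junctions had 5 in common, which covered 6 of the 29 tdTomato+ chains.

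Both readouts were available for 29 tdTomato+ and 795 tdTomato− barcodes. The gene named by the chain was also dominant in the count table in 20 of 29 tdTomato+ (69.0%, 49.2 to 84.7) and 575 of 795 tdTomato− barcodes (72.3%, 69.1 to 75.4). Another gene was dominant in 0 and 22 barcodes, and none in 9 and 198. Where any gene was dominant, the 2 readouts named the same one in 20 of 20 tdTomato+ and 96.3% of 597 tdTomato− barcodes. A UMI of the chain's gene was present in 29 of 29 and 791 of 795 barcodes. Among tdTomato− barcodes, those with TRDV4 matched most often, 93 of 100, with a median of 19 *Trdv4* UMIs. TRDV2-2 matched in 269 of 386, TRDV5 in 183 of 266 and TRDV1 in 30 of 43. Of the 22 that named another gene, 15 had a dominant *Trav15-2-dv6-2*.

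Levels told the same barcodes apart. *Trdv4* stood at 3224 CPM in the 3 tdTomato+ barcodes with a TRDV4 chain and 14.3 CPM in the tdTomato+ barcodes with another δ chain. It stood at 1797 CPM in 100 tdTomato− barcodes with a TRDV4 chain and 52.7 CPM in tdTomato− barcodes with another. *Trdv2-2* had 461 CPM in tdTomato+ barcodes with its own chain and 27.4 CPM in the other tdTomato+ barcodes. The same values were 1052 CPM and 17.3 CPM in the tdTomato− library. *Trdv5* had 386 CPM in tdTomato+ barcodes with its own chain and no count in the others, and 595 CPM and 10.1 CPM in tdTomato− barcodes. *Trdv1* had 440 CPM in tdTomato+ barcodes with its own chain and no count in the others, and 1419 CPM and 1.67 CPM in tdTomato− barcodes.

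**Figure D2:**
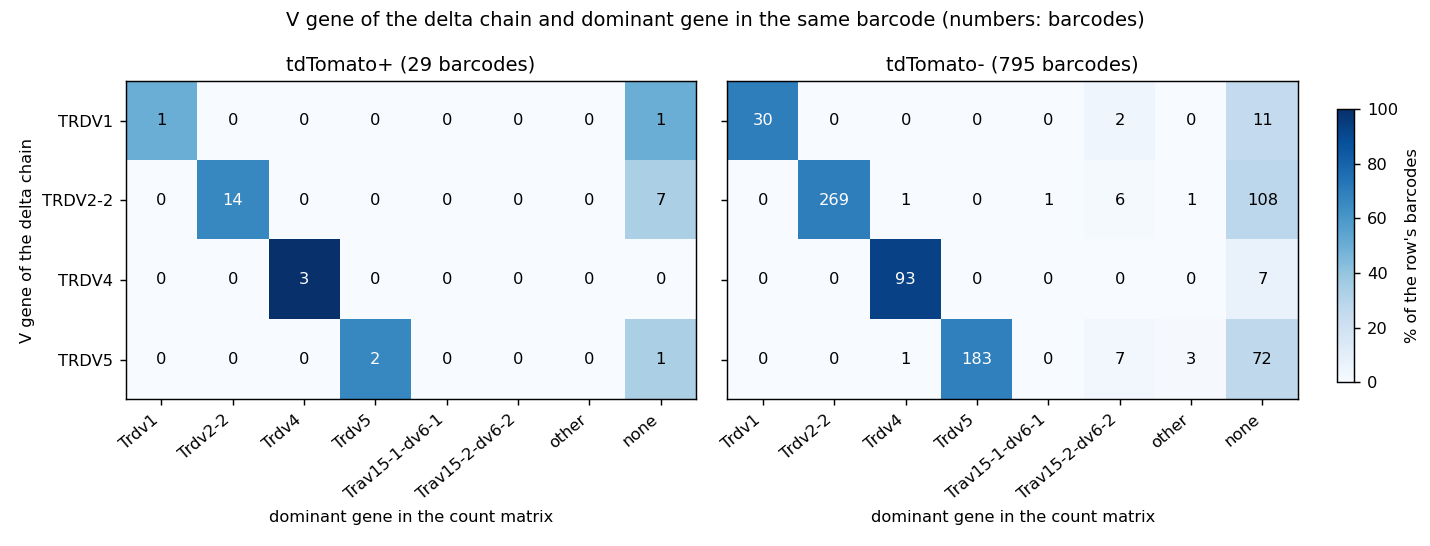
Barcodes with a δ chain by the V gene of the chain (y axis) and the dominant gene in the count table (x axis), for the tdTomato+ (left) and tdTomato− (right) library; numbers are barcodes and the colour is the percent of the row. Most barcodes lie where both name the same gene (20 of 29 and 575 of 795) or in the column without a dominant gene (9 and 198).

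Read the other way, from the count table to the chain, recovery differed by gene. In tdTomato− γδ T-like cells dominated by 1 of the 4 TRDV genes, 419 of 3132 (13.4%, 12.2 to 14.6) had a δ chain of that gene. In tdTomato+ cells it was 8 of 97 (8.25%, 3.63 to 15.6). Of the cells dominated by *Trav15-1-dv6-1* or *Trav15-2-dv6-2*, 0 of 10 tdTomato+ and 0 of 1492 tdTomato− cells had a δ chain of that gene. Since no dual-use δ chain was listed for any barcode, and whether the chain caller used could name one is not given in the sources used here, this 0 cannot be read as a measured recovery. A γ chain was listed for 421 of the 1492 (28.2%, 25.9 to 30.6), against 524 of the 3132 (16.7%, 15.4 to 18.1).

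The recovery of *Trdv4* changed strongly with its UMIs. In tdTomato− γδ T-like cells that it dominated, a TRDV4 chain was listed for 1 of 519 with 2 to 4 UMIs (0.193%), 5 of 202 with 5 to 9 (2.48%) and 81 of 502 with 10 or more (16.1%). For *Trdv2-2* the shares were 12.3%, 23.5% and 16.0% and for *Trdv5* 11.5%, 18.6% and 19.6% over the same steps. *Trdv1* had its chain in 0 of 9, 2 of 4 and 11 of 21 cells. Of the 519 cells with 2 to 4 *Trdv4* UMIs, 286 were *Gzmk* cells, and of the 502 with 10 or more, 285 were *Il17a* cells. In all, 0 of 356 *Trdv4*-dominated *Gzmk* cells had any δ chain, which allows up to 0.843%, while 92 (25.8%) had a γ chain and 90 of those 92 were TRGV4. In *Il17a* cells dominated by *Trdv4*, 33 of 336 had a TRDV4 chain, and 33 of the 33 listed γ chains were TRGV6. The γ partner was read by subset, not by UMI step.

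**Figure D3:**
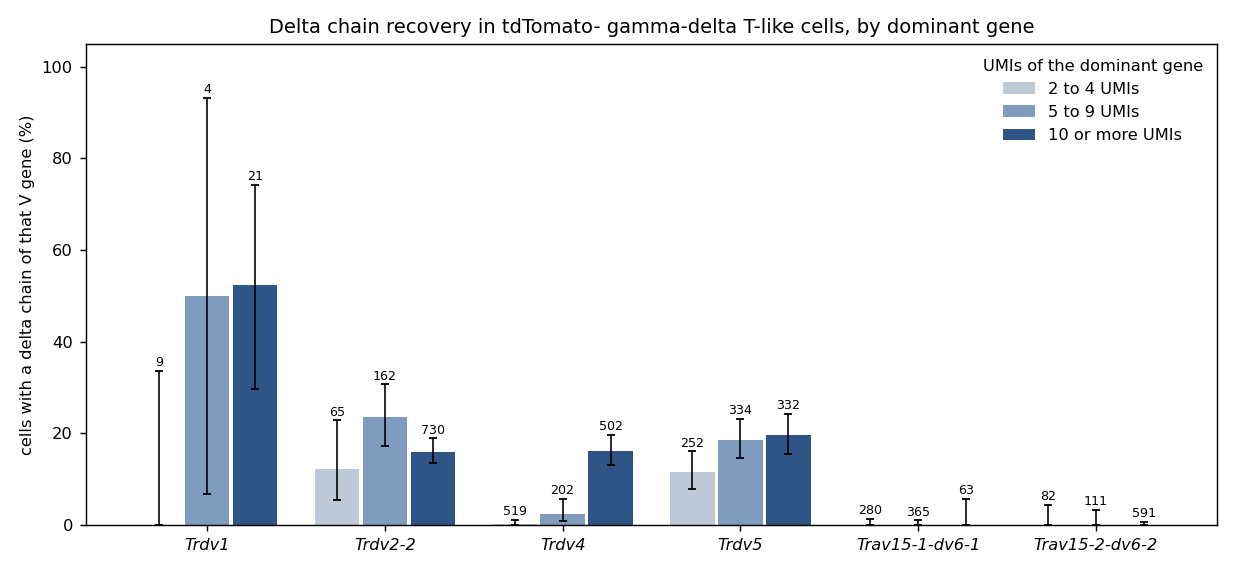
Percent of tdTomato− γδ T-like cells with a δ chain of the gene that dominates them (y axis), by dominant gene (x axis) and by UMIs of that gene (shades); numbers above the bars are cells and whiskers are exact binomial 95% intervals. The bars of *Trdv4* go from 0.193% to 16.1% with its UMIs, and those of the dual-use genes are at 0 because no such chain was listed at all.

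A dual-use gene, counting all of those in the tables, was dominant in 51 of 103 tdTomato+ (49.5%) and 654 of 1724 tdTomato− barcodes (37.9%) with a γ chain and no δ chain, and 56 and 971 of these barcodes had any dominant gene. Of γ-only barcodes with a dominant gene, that gene was dual-use in 51 of 56 in the tdTomato+ (91.1%, 80.4 to 97.0) and 654 of 971 in the tdTomato− library (67.4%, 64.3 to 70.3). Among barcodes with both chains it was dual-use in 0 of 13 and 13 of 366 (3.55%). No dual-use δ chain was listed, so every barcode with both chains carried a TRDV chain. The low dual-use share among them was therefore largely set in advance by the grouping and is not a separate result. The 51 tdTomato+ cells included 12 dominated by *Trav15-1-dv6-1* and 10 by *Trav15-2-dv6-2*, and the 654 tdTomato− cells 247 and 288. Among the 342 tdTomato− γ-only barcodes with a TRGV4 chain and a dominant gene, that gene was dual-use in 137 (40.1%) and *Trdv4* in 185.

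The γ partner differed between δ V genes in both readouts. Among tdTomato− barcodes with both chains, TRDV4 came with TRGV6 in 64 of 94 (68.1%) and TRDV5 with TRGV4 in 118 of 173 (68.2%). TRDV2-2 came with TRGV1 in 69 of 183 (37.7%), TRGV4 in 67 (36.6%) and TRGV2 in 41 (22.4%). TRDV1 was spread over TRGV1, TRGV2 and TRGV4 with 8, 7 and 8 of 24. In the tdTomato+ library TRDV2-2 came with TRGV1 in 5, TRGV2 in 4 and TRGV4 in 2 of 11 barcodes, and TRDV4 with TRGV6 in 2 and TRGV1 in 1 of 3. For the dual-use genes only the dominant gene in the count table could be used. In tdTomato− γδ T-like cells *Trav15-1-dv6-1* came with TRGV1 in 135 of 176 (76.7%, 69.8 to 82.7). By subset it was 109 of 118 (92.4%) in *Gzmk* cells and 22 of 54 (40.7%) in *Ncr1* cells. *Trav15-2-dv6-2* came with TRGV1 in 118 of 245 (48.2%, 41.8 to 54.6), with TRGV4 in 54 (22.0%) and with TRGV2 in 35 (14.3%). By the same measure *Trdv5* came with TRGV4 in 85 of 122 (69.7%), and *Trdv4* with TRGV4 in 150 (50.5%) and TRGV6 in 60 (20.2%) of 297. The readouts thus differed for *Trdv4*, since TRGV4 came with 6 of the 94 TRDV4 chains. Of the 150 cells, 90 were *Gzmk* cells, and no *Gzmk* cell dominated by *Trdv4* had a listed δ chain.

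**Figure D4:**
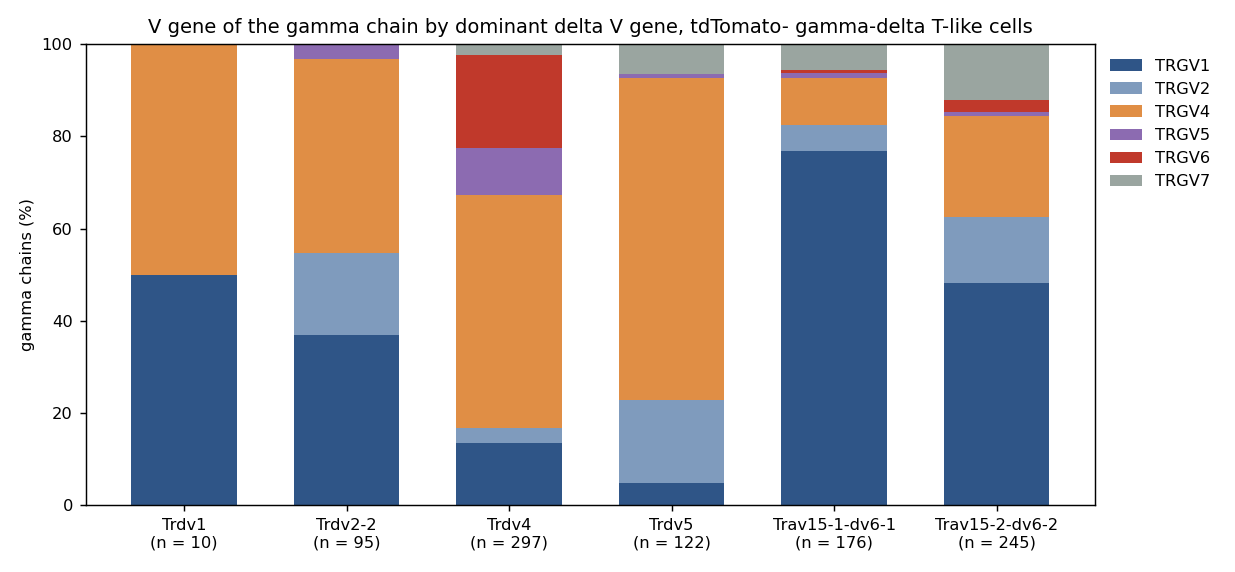
V gene of the γ chain as a percent of γ chains (y axis) in tdTomato− γδ T-like cells, by the gene dominant in the count table (x axis, with the number of cells with a γ chain). TRGV1 (dark blue) makes up 76.7% for *Trav15-1-dv6-1*, TRGV4 (orange) 69.7% for *Trdv5*, and TRGV6 (red) is seen mainly with *Trdv4* (20.2%).

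*Trdv4* was also found outside T cells. In NK-like cells, an innate lymphocyte type without a rearranged receptor, it stood at 198 CPM (185 to 212) in 456 tdTomato+ cells, against 129 CPM (111 to 149) in 175 tdTomato− cells. In innate lymphoid-like cells it stood at 279 CPM (250 to 310) in 156 tdTomato+ cells, and the tdTomato− library had only 9 such cells. It was dominant in 173 of 456 tdTomato+ (37.9%) and 35 of 175 tdTomato− NK-like cells (20%), and in 74 of 156 tdTomato+ innate lymphoid-like cells (47.4%). Of all 449 tdTomato+ cells with a dominant *Trdv4*, 173 were NK-like, 94 mixed T and endothelial, 74 innate lymphoid-like and 66 γδ T-like. Of the 1523 in the tdTomato− library, 1223 were γδ T-like.

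T cell receptor genes differed in both directions in NK-like cells. *Cd3e*, which codes for a CD3 chain, stood at 5.60 CPM in tdTomato+ NK-like cells, below the 38.0 CPM of tdTomato+ B cell-like cells, against 201 CPM in tdTomato− NK-like cells. *Trdc* stood at 21.0 CPM in tdTomato+ NK-like cells, against 79.5 CPM in tdTomato− ones. *Cd3g*, for another CD3 chain, was at 139 CPM in tdTomato+ NK-like cells, against 304 CPM in tdTomato− ones. *Trgc4*, a γ constant gene, was called higher, at 176 CPM in tdTomato+ NK-like cells, against 76.1 CPM in tdTomato− ones. The β constant genes *Trbc2* and *Trbc1* stood at 276 CPM and 157 CPM in tdTomato+ NK-like cells, against 149 CPM and 131 CPM in tdTomato− ones, and were not called. In tdTomato+ innate lymphoid-like cells *Cd3e* stood at 12.1 CPM and *Trdc* at 14.5 CPM. The 74 of these with at least 2 *Trdv4* UMIs had *Trbc2* at 641 CPM and *Cd3g* at 282 CPM. The 44 with no *Trdv4* UMI had them at 699 CPM and 202 CPM. A further comparison, chosen after the data were seen, took only cells with no *Trdc*, *Trac* or *Cd3e* count. *Trdv4* was then at 210 CPM in 309 tdTomato+ cells, against 104 CPM in 93 tdTomato− NK-like cells, and at 270 CPM in 130 tdTomato+ innate lymphoid-like cells. In B cell-like cells chosen the same way it was at 0 in tdTomato+ and 0.964 CPM in tdTomato−. No δ or γ chain was listed for any of the 456 tdTomato+ NK-like or 156 tdTomato+ innate lymphoid-like cells, which allows up to 0.658% and 1.92%, and 1 δ chain (TRDV5) and 5 γ chains were listed for the tdTomato− NK-like cells. The *Trdv4*-dominated NK-like cells had a median of 3 *Trdv4* UMIs in tdTomato+ (2 to 23) and 4 in tdTomato− cells (2 to 14), like the *Gzmk* cells and unlike the *Il17a* cells.

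Among the other δ V genes described here, only *Trdv2-2* was also found in many tdTomato+ NK-like cells, at a lower level than *Trdv4*. In these cells *Trdv2-2* stood at 32.2 CPM with a UMI in 20.8% of cells, above the tdTomato+ B cell-like levels. It dominated 20 tdTomato+ NK-like cells and 0 tdTomato+ innate lymphoid-like cells. In tdTomato+ NK-like cells *Trav15-1-dv6-1* stood at 0.467 CPM, and *Trdv1*, *Trdv5* and *Trav15-2-dv6-2* had no count. In tdTomato− NK-like cells *Trdv2-2* stood at 58.1 CPM, *Trdv5* at 60.2 CPM, *Trdv1* at 50.5 CPM and *Trav15-2-dv6-2* at 29.0 CPM, but *Trdv1* and *Trav15-2-dv6-2* came from 2 cells each. Of the 4 genes with 50 CPM in a library in NK-like cells, none was called higher and 2 lower in tdTomato+ cells, against backgrounds of 1.06% and 1.17% of 3854 genes, or 2.23% in either direction.

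**Figure D5:**
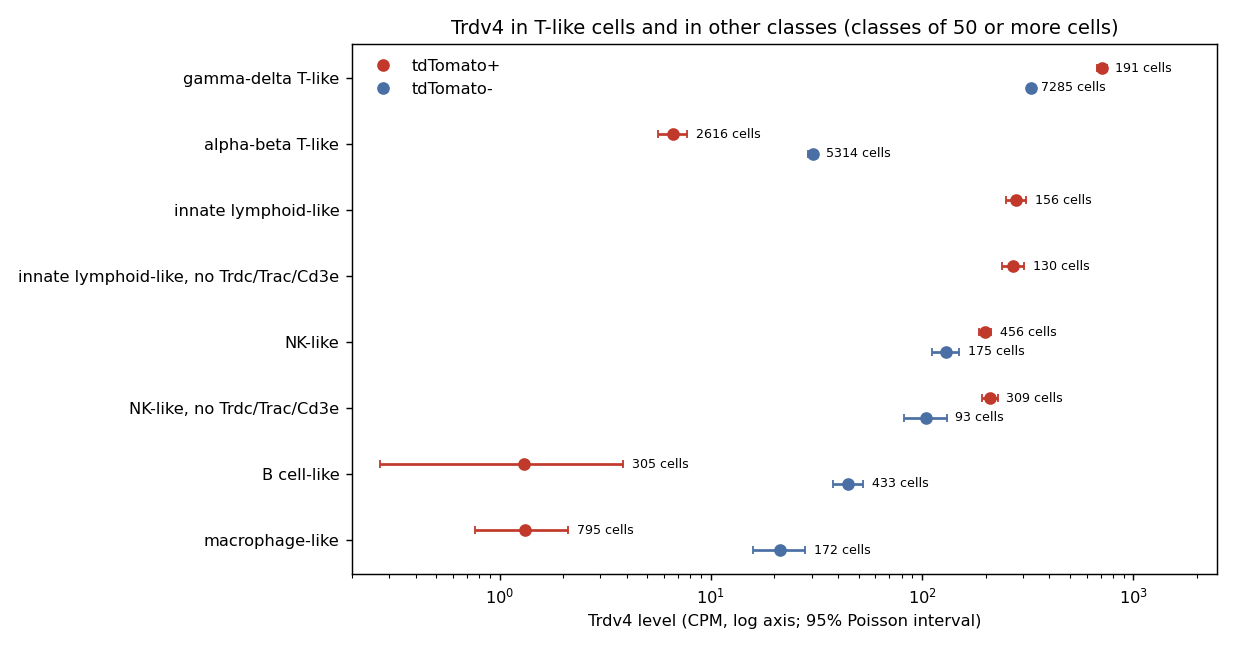
*Trdv4* level (x axis, CPM, log axis) by cell class (y axis) in the tdTomato+ (red) and tdTomato− (blue) library, with 95% Poisson intervals and the number of cells; classes under 50 cells are left out. NK-like and innate lymphoid-like cells lie between 104 and 279 CPM with or without cells that have a *Trdc*, *Trac* or *Cd3e* count, and tdTomato+ B cell-like cells at 1.31 CPM.

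In αβ T-like cells the δ V genes were low in the tdTomato+ library, between 2.48 CPM (*Trdv5*) and 10.7 CPM (*Trdv2-2*). In the tdTomato− library they lay between 22.6 CPM (*Trdv1*) and 145 CPM (*Trdv2-2*). *Trdv2-2* and *Trav15-2-dv6-2* (7.17 CPM in tdTomato+ cells, against 59.7 CPM in tdTomato−) reached the level for a comparison, and both were called lower. The background in αβ T-like cells was 0.596% of 3523 genes called lower, 0.341% higher and 0.937% in either direction. The tdTomato− αβ T-like clusters also held 155 CPM of *Trdc*, against 12.7 CPM in tdTomato+, and 152 barcodes with a δ chain. *Trdv2-2* varied between them, with 299 CPM in the highest and 35.8 CPM in the lowest of the 6 tdTomato− clusters. *Trdv1* was the one gene with more dominated cells in αβ T-like than γδ T-like clusters of both libraries, 17 against 1 in tdTomato+ and 93 against 34 in tdTomato−.

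Dominant dual-use genes came with different constant genes. Among tdTomato− γδ T-like cells dominated by *Trav15-1-dv6-1*, 88.0% had a *Trdc* UMI and 74.6% a *Trac* UMI, which codes for the α constant region. For *Trav15-2-dv6-2* the shares were 90.3% and 22.3%. *Trdv4* (46.6%), *Trdv5* (45.9%) and *Trdv2-2* (28.1%) lay in between for *Trac*. Of the 708 cells dominated by *Trav15-1-dv6-1*, 523 were *Gzmk* cells, and of the 784 dominated by *Trav15-2-dv6-2*, 715 were *Ncr1* cells. With both libraries pooled, *Trac* lay between 193 and 412 CPM in the *Gzmk* sub-clusters and between 36.8 and 121 CPM in the *Ncr1* ones. The *Trac* shares by V gene were not separated from those of the subsets. Tests of these shares were not made, since cells of 1 library share their source.

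The genes most like each δ V gene across groups were found by Pearson's r of log2(CPM + 1) over 20 groups of at least 100 cells, 9 from the tdTomato+ and 11 from the tdTomato− library, among 10522 genes. The groups share libraries and depth, so r is given as a description. *Trdv2-2* was closest to *Gzmb* (0.88), a granzyme, *Cst7* (0.87), an inhibitor of proteases in cytotoxic cells, and *Klrc1* (0.86), an NK receptor. *Trav15-2-dv6-2* was closest to *Klra5* (0.89) and *Klra6* (0.86), of the Ly49 receptor family. *Trdv4* was closest to *Fbxo27* (0.94), *Acsbg1* (0.93) and *Sytl1* (0.92). *Trdv5* was closest to *Slc35c1* (0.87), *Gm49322* (0.85) and *Myo16* (0.84). *Trav15-1-dv6-1* was closest to *Ppp2r2c* (0.92), *5830405F06Rik* (0.91) and *Gm32772* (0.87). *Trdv1* was closest to *Ube2v2* (0.80), at the lowest r of the 6.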

How the data were processed

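The authors aligned and counted reads with Cell Ranger (version 10.0.0 in the matrix header, mm10 per the submitters' notes) and deposited raw UMI counts per gene and barcode, and lists of assembled γ and δ chains with their V, D and J calls and UMI counts, all productive. The 6 genes, the lists and the comparisons were chosen with earlier results of these data known. Kept cells had at least 300 genes and at most 10% mitochondrial counts. Scrublet (in scanpy 1.11.5) called 1 tdTomato+ and 0 tdTomato− barcodes, too few to have worked, so doublets remain. Both libraries were clustered together (2000 variable genes without receptor segments, 30 components, 15 neighbors, leidenalg 0.10.2, resolution 1, seed 0), and clusters were named from lists of 16 classes and 6 subsets. To be named γδ T-like, a cluster had to reach 200 CPM for *Trdc* as well as 300 CPM for *Cd3e*. At resolution 1 only, sub-clusters of this class under 200 CPM of *Trdc* were then taken out of it. These class limits follow an earlier analysis that set them with the clusters in view. CPM were computed from summed counts with exact Poisson intervals, ratios with exact conditional binomial intervals and shares with Clopper-Pearson intervals (scipy 1.17.1). The ratio intervals and the dominant call were tested on simulated Poisson counts. These leave out that V gene counts come in large numbers from few cells, so that test does not cover the error this adds. A share of 0 was bounded by 3 counts of the total and a level of 0 by its Poisson interval. The named genes are the 6, the 12 other δ V and dual-use genes, 17 receptor partners, and the 3 genes most like each by Pearson's r. Chains and cells were joined by barcode within a sort. Positions and reference sequences come from GENCODE vM21, in which the IDs of the 6 genes match those of the tables, and the junction sequences come from the chain lists.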

Additional observations from a re-analysis of the deposited data

Results flagged for a closer look

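*Trdv4* was higher in tdTomato+ cells in one subset of γδ T-like cells and lower in another. Its log2 ratio of tdTomato+ over tdTomato− was 1.27 in the *Il17a* subset (1065 counts in 47 tdTomato+ cells and 8114 in 984 tdTomato− cells) and −2.27 in the *Gzmk* subset (6 counts in 22 tdTomato+ cells and 1776 in 1657 tdTomato− cells). The ratios lie 3.54 apart on the log2 scale, and with 1 library per sort the difference was not tested.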

How the results depend on the processing

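Of 120 values recomputed under an alternative, 71 stayed within the interval or within 1.5 times the main count, 45 moved and 4 turned their direction, and 54 of the 58 alternative log2 ratios kept their sign. No paired analysis was possible because the labels carry no replicate numbers. The cause of the changes was not tested. With 1 library per sort no library could be left out. Log2 ratios (tdTomato+ over tdTomato−) were as follows. Over cells with at least 2 *Trdc* counts, *Trdv4* turned to −0.39, with *Trdv2-2* at −1.14, *Trdv5* at −2.52 and *Trav15-2-dv6-2* at −1.86. In cells without a *Trac*, *Trbc1* or *Trbc2* count (10 tdTomato+ cells), *Trdv4* turned to −0.99, with *Trdv2-2* at −4.76, *Trav15-1-dv6-1* at −0.14 and *Trav15-2-dv6-2* at −1.96. In cells with a listed chain (26 tdTomato+ and 1837 tdTomato−), *Trdv2-2* turned to 0.39 and *Trav15-1-dv6-1* to 0.20, with *Trdv4* at 1.87, *Trdv5* at −0.83 and *Trav15-2-dv6-2* at −2.35. Without cells over 0.5% endothelial counts *Trdv5* was at −2.56. At a resolution of 0.5 *Trdv4* was at 0.27, *Trdv2-2* at −1.53, *Trdv5* at −3.36 and *Trav15-1-dv6-1* at −2.06. At a resolution of 2 they were at 0.28, −1.60, −2.94 and −2.12. No sub-clusters were taken out of the class at these resolutions, unlike at resolution 1. Without sub-cluster 7, an alternative added after the data were seen, *Trdv4* was at 0.32. Thinned to 1000 UMIs per cell *Trdv1* was at −0.072, *Trdv2-2* at −0.22, *Trdv5* at −1.49 and *Trav15-1-dv6-1* at −2.10.

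Genes called higher and lower numbered 74 and 19 as reported, 309 and 92 from 10 CPM, and 172 and 122 from a fold of 1.5. Median-of-ratios scaling shifted all ratios by a factor of 1.01. In γδ T-like cells only, TRDV2-2 and TRDV1 made up 50% and 0% of 8 tdTomato+ chains, and TRDV2-2, TRDV5, TRDV4 and TRDV1 41.9%, 38.3%, 16.3% and 3.53% of 566 tdTomato− chains. The dominant gene was that of the chain in 93.1% of tdTomato+ and 86.7% of tdTomato− barcodes from 1 UMI and 50%, in 44.8% and 45.4% from 5 UMIs and 90%, and in 100% of the 8 tdTomato+ γδ T-like barcodes. A dominant gene was found in 79.6% of tdTomato+ and 89.7% of tdTomato− γδ T-like cells from 1 UMI and 50%, in 47.1% and 34.8% from 5 UMIs and 90%, and in 30.9% and 24.6% after thinning. *Trdv4* in tdTomato− NK-like cells without *Trdc*, *Trac* or *Cd3e* counts, also added after the data were seen, was at 104 CPM. The 191 tdTomato+ γδ T-like cells and 29 δ chains limit every tdTomato+ value.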
